A study of Mus musculus with 19 samples.

Results

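The circadian clock genes Per1, Per2, Per3, Cry1, Cry2, Arntl, Clock, Dbp, Nr1d1 and Nr1d2 were read in RNA-seq libraries of hippocampal CA1 tissue from mice. They were chosen by symbol in the GENCODE annotation, release M21, and are 10 of the 48709 genes in the count tables; all 10 passed the filter on low counts. The 19 libraries came from mice 7 months old. WT control (n = 6) were wild-type littermates, APP control (n = 6) were APPPS1-21 mice, and APP anti-miR-mix (n = 7) were APPPS1-21 mice treated with a mixture that inhibits miR-148a-3p, miR-146a-5p and also miR-181a-5p. In the APPPS1-21 line, Thy1 regulatory sequence drives human transgenes that include a mutant APP, and the mice deposit amyloid. All mice received lipid nanoparticles in the dorsal hippocampus, holding the mixture or a control oligonucleotide. The titles of the WT control libraries also name the mixture, but the study describes these animals as treated with the control, and that reading was used. The hour at which each brain was taken is not given in the sources used here, and the study states a light/dark cycle for its housing.

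In the mammalian clock, the proteins encoded by Arntl (also called Bmal1) and Clock pair up and switch on genes that carry an E-box, the Per and Cry genes among them. PER and CRY proteins then enter the nucleus and inhibit that pair, which closes a loop of about a day. Nr1d1 and Nr1d2 encode REV-ERB alpha and beta, nuclear receptors that repress Arntl through ROR elements, and Dbp is a transcription factor of the output that is itself switched on through E-boxes. In many rodent tissues Arntl transcripts are therefore high when Dbp and Per transcripts are low, and the levels of these genes are often read as a marker of time of day.

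All 10 genes were well counted. The lowest raw count of any of them in any library was 247 (Cry1 in WT control 2), with total counts between 19362343 and 37018917 per library. Values below are read counts divided by the DESeq2 size factor of the library (normalized counts), which compare libraries and not genes. Per length of exon, as CPM (counts scaled to a common library total) per kilobase, Nr1d1 was the most abundant member in WT control at 37.8 ± 3.18 (SD, n = 6), followed by Cry2 at 27.9 ± 2.42 and Per1 at 23.9 ± 3.65. Nr1d2 at 18.4 ± 2.72 and Dbp at 18.1 ± 2.28 did not differ beyond their spread. Per2 (9.39 ± 1.17), Clock (8.25 ± 0.917) and Per3 (7.11 ± 0.613) came next and each overlapped its neighbour within the SD, as did Cry2 with Per1 and Per1 with Nr1d2. Arntl (4.87 ± 0.311) and Cry1 (3.83 ± 0.585) were the least abundant. Since tissue was sequenced in bulk, fewer cells that express a gene and less RNA of it per cell cannot be told apart.

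The kit named in the labels does not mark strand, and how reads on bases shared by overlapping genes were counted was not stated, so such reads may have been dropped or assigned to either gene. Dbp shares 539 exonic bases with Sphk2 (18.0% of the exonic length of Dbp) and Nr1d1 shares 263 with Thra (8.55%). Over all libraries Thra held 450636 counts, more than Nr1d1 itself, whereas Sphk2 held 15687, fewer than Dbp. The overlaps were smaller for Cry2 with D930015M05Rik (295 bases, 4.67%) and for Arntl with Gm45355 (33 bases, 0.439%). Values of Dbp and Nr1d1, the rank of Nr1d1 per kilobase included, are given with that limit.

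Arntl transcripts were lower in the transgenic mice than in wild type. Its levels in WT control ranged from 1018 to 1200 normalized counts with a median of 1070. In APP control they ranged from 815 to 975 with a median of 900. Every APP control library was below every WT control library. The log2 fold change was -0.26 (SE 0.07, DESeq2 adjusted p = 0.00518), which put the mean at 902 ± 72.3 (n = 6) against 1083 ± 71.7 in WT control (n = 6). Of the 10 clock genes this 1 passed the threshold of an adjusted p of 0.05, with 0 higher and 1 lower, whereas 4.71% of all genes tested passed it (3.66% higher and 1.05% lower). Groups did not overlap for 1.57% of all genes, and APP control lay wholly below WT control for 0.368%. The call held in all 27 alternative fits, with a log2 fold change between -0.29 and -0.23 and an adjusted p between 0.00158 and 0.0342.

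In APP anti-miR-mix, Arntl ranged from 816 to 1051 normalized counts with a median of 881. This was close to APP control, from which it differed by 0.02 on the log2 scale (SE 0.07, adjusted p = 1), and 6 of the 7 libraries were below all WT control libraries. The exception was APP anti-miR-mix 3 at 1051, so the groups overlapped, as they did for every clock gene in this comparison (3.42% of all genes did not overlap, and 0.897% were wholly below). Against WT control the log2 fold change was -0.25 (SE 0.07, adjusted p = 0.00469), and this call also held in all 27 alternatives (adjusted p from 0.000312 to 0.0330). Both comparisons use the same WT control libraries and are not independent of each other.

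Arntl (ENSMUSG00000055116) lies on the plus strand of chromosome 7, from 113207465 to 113314126 on GRCm38. The RefSeq promoter windows, taken from 250 bases before to 50 after an annotated start, were searched for the E-box CACGTG, the related CACGTT, the D-box (TTATGTAA or TTACGTAA) and the core of the ROR element (TAGGTCA), on both strands. Windows existed for 9 of the 10 genes, and Per2 had none. The Arntl window is shown because Arntl was called against WT control in both transgenic groups, and it held the core of the ROR element, in capitals, at 30 from the start (negative positions lie before it). This core stands in 2.61% of all 32851 windows.

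Arntl, chr7:113207261-113207560, plus strand, GRCm38.p6:
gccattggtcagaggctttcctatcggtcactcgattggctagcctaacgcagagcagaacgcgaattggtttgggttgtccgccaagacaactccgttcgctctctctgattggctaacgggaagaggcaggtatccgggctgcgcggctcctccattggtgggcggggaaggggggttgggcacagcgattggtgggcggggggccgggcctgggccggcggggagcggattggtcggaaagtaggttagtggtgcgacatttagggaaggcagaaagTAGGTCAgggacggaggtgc

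Clock, which encodes the partner of ARNTL, did not pass in any comparison. Its levels spanned 2954 to 4011 normalized counts in WT control with a median of 3227, then 2570 to 4033 (median 3241) in APP control, and 2551 to 3454 (median 3329) with the mixture. The groups overlapped widely. Relative to WT control the log2 difference was -0.06 without the mixture (SE 0.11, adjusted p = 0.929) and -0.11 with it (SE 0.10, adjusted p = 0.646), and between the transgenic groups it was -0.05 (SE 0.10, adjusted p = 1).

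Per1, a repressor of the loop that is also induced quickly by neuronal activity, was lower in treated transgenic mice than in wild type. It spanned 3389 to 4821 normalized counts in WT control with a median of 3929, then 2934 to 4048 (median 3434) in APP control, and 2878 to 3631 (median 3250) with the mixture. The groups overlapped, but 4 of the 7 APP anti-miR-mix libraries and 2 of the 6 APP control libraries were below every WT control library. APP anti-miR-mix differed from WT control by -0.29 on the log2 scale (SE 0.09, adjusted p = 0.0176), and with Arntl it made 2 of 10 clock genes called, both lower, in a comparison in which 8.96% of all genes passed (5.59% higher and 3.37% lower). The edgeR test did not call Per1 (adjusted p = 0.0602), nor did the fits without WT control 1 (0.0630), WT control 3 (0.0512) or APP anti-miR-mix 6 (0.0566), and over the 27 alternatives the adjusted p ran from 0.00177 to 0.0630. In APP control against WT control Per1 differed by -0.20 (SE 0.09, adjusted p = 0.262), which did not pass.

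The immediate early genes, a list of 12 transcripts that neurons make within minutes of activity, were read beside Per1. In APP control 9 of the 12 were lower than in WT control and none was higher, with a median log2 fold change of -0.49 beside -0.01 for all genes. In APP anti-miR-mix against WT control 10 of the 12 were lower and none was higher (median -0.57 beside -0.02). Nr4a1, an orphan nuclear receptor, fell by 0.77 (SE 0.12, adjusted p = 3.46e-08) and by 1.05 (SE 0.11, adjusted p = 7.24e-17) on the log2 scale in these comparisons. Arc, a regulator of synapses, fell by 0.75 (adjusted p = 0.00532) and 1.04 (adjusted p = 4.37e-06), and Fos by 0.63 (adjusted p = 0.00579) and 0.93 (adjusted p = 7.49e-07). The transgenic groups did not differ in any of them by this test. The part of neuronal activity in the level of Per1 was not tested.

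Per1 (ENSMUSG00000020893) lies on the plus strand of chromosome 11, from 69095217 to 69109960. One of its windows held an E-box, in capitals, at -166 from the start, and is shown because E-boxes are the sites of the ARNTL and CLOCK pair. The E-box stands in 7.15% of all windows.

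Per1, chr11:69098699-69098998, plus strand, GRCm38.p6:
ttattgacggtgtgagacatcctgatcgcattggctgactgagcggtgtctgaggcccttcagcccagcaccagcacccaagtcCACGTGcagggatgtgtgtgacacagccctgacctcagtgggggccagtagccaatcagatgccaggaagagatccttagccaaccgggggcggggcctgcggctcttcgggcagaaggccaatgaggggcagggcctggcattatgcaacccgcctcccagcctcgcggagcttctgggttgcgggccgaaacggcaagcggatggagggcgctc

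Among the other members, Cry1 held both an E-box at -60 and CACGTT at -79, whereas Cry2 (at -166) and Nr1d1 (at -28) held CACGTT alone, which stands in 4.68% of all windows. Per3 held D-boxes at -205 and -158, a motif found in 1.06% of windows. No listed motif stood in the windows of Clock, Dbp and Nr1d2 or in the second windows of Arntl and Per1, which says nothing of sites elsewhere in these genes.

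Per2 and Per3, the other period genes, did not pass in any comparison. Per2 spanned 1370 to 1869 normalized counts in WT control with a median of 1605, then 1466 to 1779 (median 1548) in APP control, and 1399 to 1874 (median 1563) with the mixture. Its log2 differences were between -0.04 and 0.00 in the 3 comparisons. Per3 spanned 1846 to 2208 in WT control with a median of 1991, then 1919 to 2563 (median 2176) in APP control, and 2119 to 2313 (median 2220) with the mixture. Of the transgenic libraries 3 of 6 without the mixture and 4 of 7 with it were above every WT control library in Per3, the direction opposite to that of Per1. The log2 differences from WT control were 0.14 in both groups (SE 0.07, adjusted p = 0.343 and 0.235). When the fit held these groups alone, APP anti-miR-mix differed from WT control in Per3 with an adjusted p of 0.0388, and over all alternatives it was called in that fit only.

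The cryptochromes, which bind and inhibit the ARNTL and CLOCK pair, showed no call. Cry1 spanned 334 to 482 normalized counts in WT control with a median of 365, then 293 to 459 (median 382) in APP control, and 376 to 456 (median 435) with the mixture. APP anti-miR-mix had the narrowest range and the highest median. Against APP control it differed by 0.20 (SE 0.10), with an unadjusted p of 0.0493 and an adjusted p of 1. Cry2 spanned 4659 to 5715 in WT control with a median of 5241, then 4269 to 5214 (median 4564) in APP control, and 4241 to 5155 (median 4643) with the mixture. Of these, 4 APP control and 4 APP anti-miR-mix libraries were below every WT control library. Against WT control Cry2 differed by -0.16 without the mixture (SE 0.07, adjusted p = 0.168) and by -0.15 with it (SE 0.06, adjusted p = 0.104). In treated mice it was called without WT control 5 (-0.18, adjusted p = 0.0410) or without APP anti-miR-mix 2 (-0.18, adjusted p = 0.0460).

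Nr1d1 and Nr1d2, the repressors of Arntl, were not called either. Nr1d1 spanned 3159 to 3748 normalized counts in WT control with a median of 3446, then 2438 to 3423 (median 3262) in APP control, and 2789 to 3467 (median 3332) with the mixture. Nr1d2 spanned 2404 to 3555, 2150 to 3822 and 2480 to 3675 in the same order (medians 2768, 2782 and 3086). All groups overlapped for both genes. Against WT control the log2 differences of Nr1d1 were -0.13 without the mixture (SE 0.08, adjusted p = 0.465) and -0.08 with it (SE 0.08, adjusted p = 0.619). Those of Nr1d2 were -0.07 (SE 0.14, adjusted p = 0.930) and 0.04 (SE 0.13, adjusted p = 0.926).

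Dbp, the output gene, spanned 1460 to 1910 normalized counts in WT control with a median of 1556, then 1213 to 1987 (median 1776) in APP control, and 1592 to 2065 (median 1787) with the mixture. The groups overlapped. The log2 differences were 0.10 without the mixture (SE 0.10, adjusted p = 0.798) and 0.17 with it (SE 0.10, adjusted p = 0.331) against WT control, and 0.07 between the transgenic groups (SE 0.10, adjusted p = 1). The point estimates of Dbp were thus above WT control and those of Arntl below it, but only those of Arntl passed the test. Other members switched on through E-boxes did not go with Dbp. In APP control the estimates of Per1 (-0.20), Cry2 (-0.16) and Nr1d1 (-0.13) were below WT control without a call, and 2 of the 10 clock genes were above it.

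**Figure D1:**
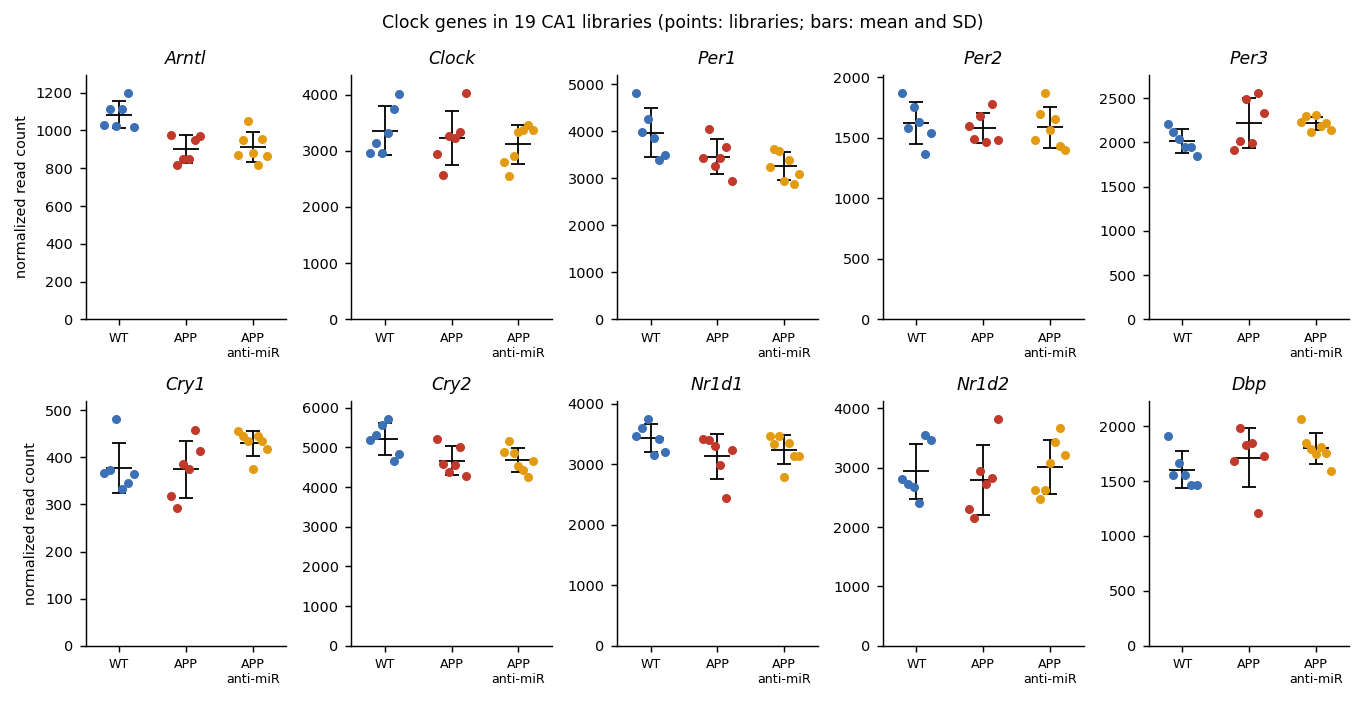
Normalized read counts (y axis, from 0) of the 10 clock genes in the 19 libraries by group (x axis; WT, WT control; APP, APP control; APP anti-miR, APP anti-miR-mix). Points are libraries and bars the mean and SD; the APP control points of Arntl, between 815 and 975, all lie under the WT control points, between 1018 and 1200, whereas the groups of the other genes overlap.

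**Figure D2:**
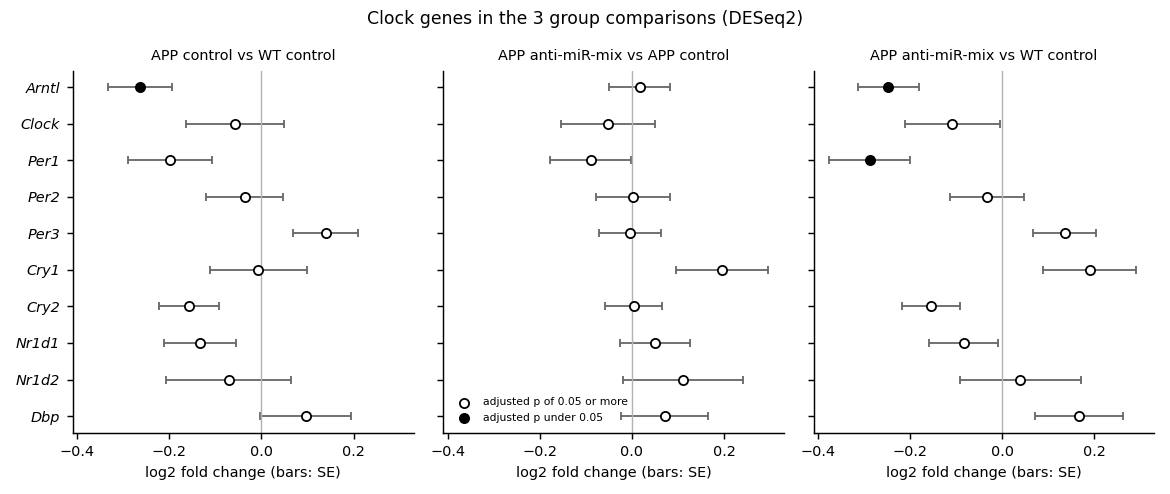
Log2 fold change (x axis, bars SE) of each clock gene (y axis) in the 3 group comparisons, with filled points where the DESeq2 adjusted p was under 0.05. Arntl is filled in both comparisons with WT control, at -0.26 and -0.25, and Per1 in APP anti-miR-mix against WT control, at -0.29.

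The effect of the mixture itself was read between APPPS1-21 mice given the mixture and those given the control oligonucleotide. None of the 10 clock genes was called, and 0% of all genes tested passed the threshold. Of 19284 genes tested 552 had an unadjusted p under 0.05 in DESeq2, as did 572 of 19297 in edgeR, which also called none. Both are fewer than evenly spread p-values would put under 0.05. Groups did not overlap for 0.0207% of all genes, and no clock gene was among them. Of the clock genes read here, 7 stand in the lists of predicted targets of the inhibited microRNAs, among them Per1 (miR-146a-5p), Nr1d2 (miR-181a-5p) and Clock (miR-148a-3p and miR-181a-5p). The mature sequences are shown with the seed, bases 2 to 8, in capitals, since the seed is what pairs with a target; those of miR-181a-5p from both of its genes are identical.

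mmu-miR-146a-5p: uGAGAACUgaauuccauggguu
mmu-miR-148a-3p: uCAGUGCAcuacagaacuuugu
mmu-miR-181a-5p: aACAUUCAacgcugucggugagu

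The annotated 3′ untranslated regions of Per1, Clock and Nr1d2 were searched for the reverse complement of the seed, in capitals in these stretches of the transcribed strand. Per1 held 1 match to miR-146a-5p, Clock 1 match each to miR-148a-3p and miR-181a-5p, and Nr1d2 a pair of matches to miR-181a-5p, of which the second is shown up to the end of the transcript.

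Per1 for miR-146a-5p, chr11:69109537-69109566, GRCm38: tagcagagtggaAGTTCTCagccccatttg
Clock for miR-148a-3p, chr5:76215824-76215853, GRCm38, minus strand: gtttgagagaatTGCACTGctttattattt
Clock for miR-181a-5p, chr5:76212652-76212681, GRCm38, minus strand: tgacttttgtttTGAATGTggtggagtcag
Nr1d2 for miR-181a-5p, chr14:18206422-18206451, GRCm38, minus strand: ttataatcacacTGAATGTtagactttttc
Nr1d2 for miR-181a-5p, chr14:18204054-18204076, GRCm38, minus strand: tataaagtttgcTGAATGTatga

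With the inhibitors these genes differed from APP control by -0.09 (Per1, SE 0.09), -0.05 (Clock, SE 0.10) and 0.11 (Nr1d2, SE 0.13) on the log2 scale, all with an adjusted p of 1. The other predicted targets of the clock were Rora and Rorb, activators of Arntl, and Hlf and Tef, relatives of Dbp, and they differed by 0.23 (SE 0.16), 0.21 (SE 0.12), 0.14 (SE 0.12) and 0.04 (SE 0.04). The signs were positive in 5 of the 7 genes and the median was 0.11, beside 0.00 for all genes. No call was made among them.

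The wider clock was read in 16 further genes, among them the ROR receptors and the kinases Csnk1d and Csnk1e. None was called in APP control against WT control (median log2 fold change -0.05 beside -0.01 for all genes) or between the transgenic groups (0.02 beside 0.00). Of the 16, 1 was called in APP anti-miR-mix against WT control. This was Bhlhe41, a repressor that competes at E-boxes, with 0.31 (SE 0.09, adjusted p = 0.00632). Of 11 output genes of the clock 10 could be tested, since Avp, the neuropeptide of the suprachiasmatic nucleus, was below 5 normalized counts in all libraries. Tspan4, a tetraspanin, was called in both comparisons with WT control, with 0.45 (SE 0.10, adjusted p = 0.000376) without the mixture and 0.44 (SE 0.10, adjusted p = 0.000164) with it, and the remaining 9 were not.

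Lists that move with body temperature and with stress hormones, both of which can shift clock genes, were read beside them. Of 10 temperature genes 2 fell in APP control against WT control, the chaperones Hspa8 (-0.18, SE 0.06, adjusted p = 0.0424) and Hsp90aa1 (-0.18, SE 0.06, adjusted p = 0.0434), and Hsph1 was called beside them in APP anti-miR-mix. No such gene was called by edgeR in either comparison, and none in APP control without APP control 5. The cold-induced Cirbp and Rbm3 were not called between groups. Of 12 glucocorticoid-induced genes none was called between groups, with 10 tested because DESeq2 gave no p for Plin4 and Sult1a1. The median log2 fold change of the 12 in APP control against WT control was 0.26 beside -0.01 for all genes, positive in 9. With the mixture against WT control it was 0.10 beside -0.02, positive in 8, and between the transgenic groups -0.16, positive in 2. Without APP control 5, 2 of these genes were called higher in APP control and 3 with the mixture, both against WT control.

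The spread of the clock genes was read over all 19 libraries, so that differences between groups are part of it. From the lowest to the highest library, Nr1d2 spanned 1.78-fold, Dbp 1.70-fold, Per1 1.68-fold, Cry1 1.64-fold and Clock 1.58-fold. The span was smaller for Nr1d1 (1.54-fold), Arntl (1.47-fold), Per3 (1.39-fold), Per2 (1.37-fold) and Cry2 (1.35-fold). The median over the 10 genes was 1.56-fold, beside 1.43-fold over the 12765 genes with a mean of at least 100 normalized counts. The within-group SD on the log2 scale had a median of 0.15 for the clock genes and 0.136 for those genes.

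Since Dbp and Arntl run in opposite phase in many tissues, their relation was examined over libraries after each group was centred on its mean. Over the 19 libraries Dbp and Arntl had a Pearson r of -0.40 (permutation p = 0.103) and a Spearman rho of -0.38 (permutation p = 0.129). Adjusted over the 9 relations of Dbp with the other clock genes these permutation values were p = 0.309 and p = 0.232, so the relation did not pass. It was -0.31 without the libraries farthest from the median of Dbp (APP control 5 and WT control 5). Within groups r was -0.51 for WT control, -0.62 for APP control and -0.01 with the mixture.

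Nr1d1 is another gene switched on through E-boxes, and it had the largest Pearson r with Dbp over all libraries, though not the largest rho or the largest r once the farthest libraries were left out. Their r was 0.71 (permutation p = 0.0133, adjusted p = 0.120) and rho 0.56 (permutation p = 0.0207, adjusted p = 0.0931). APP control 5 was the lowest of all 19 libraries in both genes, with 1213 normalized counts of Dbp and 2438 of Nr1d1. Without APP control 5 alone r was 0.37, and 0.39 without WT control 5 as well, so its size over all libraries rests on APP control 5. Within groups it was 0.39 for WT control, 0.87 for APP control and 0.54 with the mixture, which holds neither library. The r of Per1 with Dbp was 0.36 over all libraries (permutation p = 0.166, adjusted p = 0.373) and 0.68 without the same libraries, with 0.97 for WT control, -0.02 for APP control and 0.34 with the mixture. Clock had an r of -0.49 with Dbp (permutation p = 0.0680, adjusted p = 0.306) and a rho of -0.60 (permutation p = 0.0113, adjusted p = 0.0931), and an r of -0.62 without the same libraries.

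**Figure D3:**
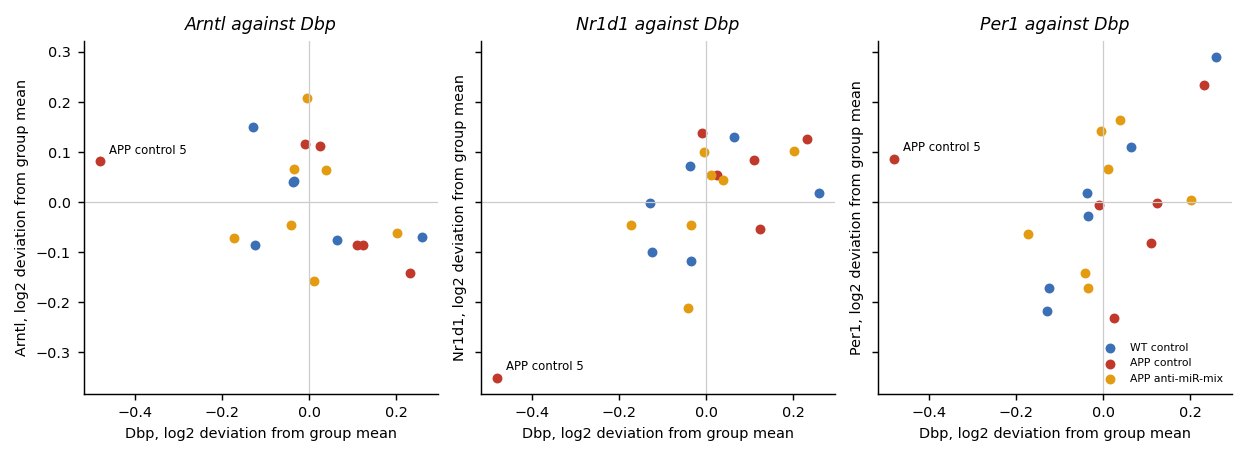
Log2 deviation from the group mean of Arntl, Nr1d1 and Per1 (y axes) against that of Dbp (x axes), with 1 point per library coloured by group. APP control 5 lies far to the left in each panel, low in Nr1d1 and not in Per1, and r over the 19 libraries was -0.40, 0.71 and 0.36.

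A fit of all genes on the Dbp level of the library, with the group in the model, called 1 of the 9 other clock genes, higher, whereas 12.8% of all genes passed (6.04% higher and 6.74% lower). This was Nr1d1, with a log2 change of 0.10 per SD of Dbp (SE 0.03, DESeq2 adjusted p = 0.00630). It was not called without APP control 5 (0.04 per SD, adjusted p = 0.319), with the adjustment number described below as a factor (adjusted p = 0.118) or with the block of the label numbers (adjusted p = 0.113), and in the other 22 of 25 alternatives it was (adjusted p from 0.00316). With the adjustment number as a factor Cry2 was called instead (-0.09 per SD, adjusted p = 0.0287). Without APP control 5 the fit called Per1 (0.14 per SD, adjusted p = 0.00421) and Clock (-0.15 per SD, adjusted p = 0.0121) in place of Nr1d1. Clock was also called without APP control 6 (-0.10 per SD, adjusted p = 0.0322), there beside Nr1d1. Of the wider clock Npas2, a relative of Clock, fell with the Dbp level (-0.11 per SD, adjusted p = 0.0470) and Tspan4 rose (0.10, adjusted p = 0.0388), and of the temperature genes Cirbp (-0.08, adjusted p = 0.0289) and the chaperone Hspa1b (-0.23, adjusted p = 0.0438) fell; edgeR called none of these 4. With the Arntl level in place of Dbp no gene of any kind was called. Of 19296 genes tested there, 414 had an unadjusted p under 0.05, also fewer than evenly spread p-values would give.

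Genes of myelin also followed Dbp. Of 6 oligodendrocyte markers 5 rose with the Dbp level, with a median of 0.25 per SD beside 0.00 for all genes. Mag rose by 0.34 (SE 0.06, adjusted p = 2.13e-06), Cnp by 0.27 (SE 0.05, adjusted p = 3.02e-05) and Mog by 0.27 (SE 0.06, adjusted p = 0.00107). The exception was Mobp, at 0.07 (adjusted p = 0.543). Without APP control 5 Mag (0.23, adjusted p = 0.00972), Cnp and Mbp were called, 3 of the 6. The summed level of these 6 markers lay at 164700 to 278400 normalized counts for WT control, 149600 to 262700 for APP control and 133100 to 274600 with the mixture, with no marker under 1 count in all libraries, and none was called between groups. Of 5 microglia markers 4 also rose with Dbp, and 1 without APP control 5. The part of cell makeup in the Dbp level was not tested.

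Among the genes most like Dbp over the 19 libraries, within groups, were Gamt (r = 0.93), which makes creatine, Tst (0.91), a mitochondrial sulfur transferase, Dhrs1 (0.90) and Emid1 (0.89). The least like it were Ppil4 (-0.88), Gm16536 (-0.87), Eid2b (-0.86), Ubp1 (-0.86) and 2810021J22Rik (-0.85). Nr1d1 ranked 420 of the 12764 genes compared, and the next clock gene was Per1 at rank 3224. For Arntl the most alike were the neuronal genes Adcy1 (0.79), an adenylyl cyclase, and Chrm3 (0.78), a muscarinic receptor, then Usp33, Terf2ip and Mfsd4a (0.73 to 0.72), and the least alike were Txnrd3 (-0.74), Slc25a10 (-0.72), Tmem80 (-0.70), Rftn1 (-0.70) and Wdsub1 (-0.67). Dbp ranked 12441 of 12764 in its likeness to Arntl.

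APP control 5 stood apart in some genes induced by glucocorticoids. Plin4, a lipid droplet protein, was at 1527 normalized counts there and between 99.0 and 267 in the other libraries. Sult1a1, a sulfotransferase, was at 927 there and between 126 and 234 elsewhere, and Fkbp5, a feedback inhibitor of the glucocorticoid receptor, at 3019 and between 1244 and 1752. In Zbtb16 and Klf9 of the same list no APP control library was above the WT control maximum (2135 beside 2366, and 3875 beside 3949). A count over the 12 genes of the list was not made. Over all libraries 5 of the 12 genes of this list fell with the Dbp level, Plin4 (-0.58 per SD, adjusted p = 0.00500), Sult1a1 (-0.42, adjusted p = 0.00225), Map3k6 (-0.27, adjusted p = 0.0269), Fkbp5 (-0.17, adjusted p = 0.0218) and Klf9 (-0.08, adjusted p = 0.0422). Without APP control 5 none fell and 1, Cdkn1a, rose (0.22 per SD, adjusted p = 0.00209). Per1, itself induced by glucocorticoids in many tissues, was at 3657 in that library, within the range of its group.

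The levels of the clock genes were also compared with each other. Of the 45 pairs of clock genes 10 had an r beyond 0.5 in either direction over the 19 libraries, within groups, and the median absolute r was 0.27. These pairs are named after their values were seen and are a description. The share of such pairs among all genes was not computed, so the count says nothing particular to the clock genes. Clock and Nr1d2 had an r of 0.91, with 0.76 for WT control, 0.98 for APP control and 0.94 with the mixture. Per1 ran against both Clock (r = -0.84) and Nr1d2 (r = -0.72), and so did Cry2 (r = -0.67 and -0.82). These 4 pairs were also negative in each group. Per1 went with Cry2 (r = 0.57) and Per2 with Cry2 (r = 0.52), positive in each group. Per1 and Per2 had an r of 0.67, made of 0.94 for WT control, 0.12 for APP control and 0.78 with the mixture. Per3 and Cry1 had an r of 0.55, but the sign turned between groups, with 0.22, 0.80 and -0.31 in the same order. Arntl had no r beyond 0.41 with any of them.

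**Figure D4:**
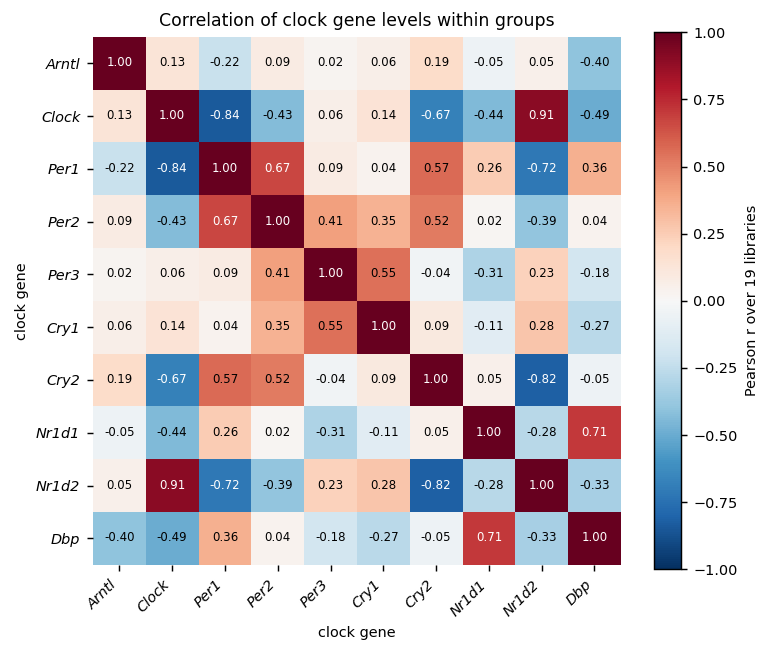
Pearson r between the clock genes (both axes) over the 19 libraries after centring on group means, printed in each cell and coloured from blue (-1) to red (1). Clock and Nr1d2 (0.91) form a pair opposed to Per1 and Cry2, while the row of Arntl stays between -0.40 and 0.19.

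Clock, Nr1d2, Per1 and Cry2 also moved with a property of the libraries. The deposited table of log2 values differed from log2(CPM + 1) of the counts by a slope for each gene times a whole number, between 1 and 5, for each library. Of the squared difference 99.99979% lay on that single profile, and the numbers were at most 0.00105 from whole. What the number stands for is not stated in the sources used here, and it is called the adjustment number. Within groups it had an r of 0.84 with the percentage of counts on mitochondrial genes, which lay between 2.84 and 4.87, and of 0.40 with the log2 total counts.

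In a fit of all genes on this number, with the group in the model, 6 of the 10 clock genes were called, beside 29.3% of all genes. Clock rose by 0.13 per unit (SE 0.02, DESeq2 adjusted p = 6.11e-08) and Nr1d2 by 0.15 (SE 0.03, adjusted p = 3.21e-05), in a fit that called 15.5% of genes higher. Clock was between 2802 and 2959 normalized counts in the 3 libraries with the number 1, between 3325 and 4033 in the 5 with the number 4 and at 4011 in the library with the number 5. The ranges of Clock at 1 and at 4 did not overlap. Those of Nr1d2 were 2302 to 2814 and 2830 to 3822.

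Per1 (-0.09 per unit, SE 0.02, adjusted p = 0.00140), Dbp (-0.09, SE 0.03, adjusted p = 0.00591), Cry2 (-0.05, SE 0.02, adjusted p = 0.0213) and Nr1d1 (-0.06, SE 0.02, adjusted p = 0.0232) fell with the number, where 13.8% of genes fell. Dbp lay between 1683 and 2065 in the libraries with the number 1 and between 1213 and 1753 in those with the number 4. Cry2 was not called without both libraries high in choroid plexus genes (adjusted p = 0.110), nor without WT control 6, APP control 1 or APP anti-miR-mix 6 (adjusted p = 0.0562, 0.0866 and 0.0506). Nr1d1 was not called without APP control 1 (adjusted p = 0.0582). Per2, Per3, Cry1 and Arntl were not called, and Arntl had a change of 0.00 per unit (SE 0.02, adjusted p = 0.920). Over the alternatives that left out 1 library, between 4 and 7 of the clock genes were called.

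The percentage of mitochondrial counts moved with these genes too. Its r within groups was 0.91 with Clock, 0.83 with Nr1d2, -0.75 with Per1, -0.67 with Cry2, -0.65 with Nr1d1 and -0.51 with Dbp. It was -0.49 with Per2, which was not called with the number. For Per3 (0.13), Cry1 (0.07) and Arntl (0.00) it was small. The part of the number, of mitochondrial counts and of the time of day in these levels was not tested.

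**Figure D5:**
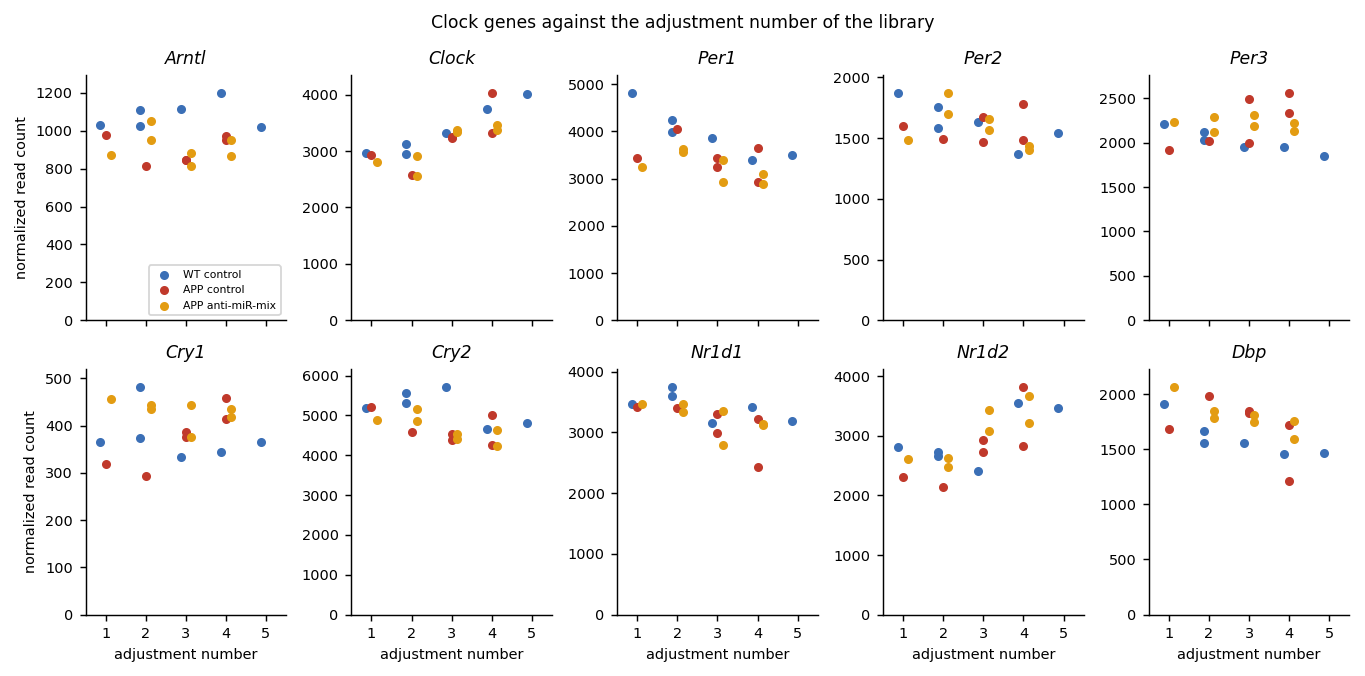
Normalized read counts (y axes, from 0) of the 10 clock genes against the adjustment number of the library (x axis), with 1 point per library coloured by group. Clock and Nr1d2 are higher in every library with the number 4 or 5 than in any with 1 or 2. The WT control points of Arntl all lie above those of APP control, so the same order at each number adds nothing to that.

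Arntl was also called with this number in the model. With it as a factor Arntl differed from WT control by -0.28 without the mixture (adjusted p = 0.00439) and by -0.26 with it (adjusted p = 0.00293), and the counts of clock genes called stayed at 1, 0 and 2. Of the libraries high in choroid plexus genes (8 markers, which summed to 2478 normalized counts for WT control 5 and to 1739 for APP anti-miR-mix 6, beside medians between 654 and 738), each alone changed a count. In APP anti-miR-mix against WT control the fit called 3 clock genes when WT control 5 was left out, with Cry2 added, and 1 when APP anti-miR-mix 6 was left out, with Per1 lost. Without both, the counts were 1, 0 and 2. Leaving out other libraries also changed the count of APP anti-miR-mix against WT control, to 3 without APP anti-miR-mix 2 and 1 without WT control 1. Of 5 microglia markers 3 rose against WT control without the mixture and 4 with it, with normalized counts that summed to 9016 to 13770 for WT control, 12540 to 26100 for APP control and 17590 to 27010 with the mixture, and no marker under 1 count in all libraries. With the adjustment number as a factor, 1 of the 6 CA1 pyramidal markers was called lower with the mixture than in WT control. Leaving out each library in turn gave 0 to 2 called lower there. With all libraries and the group alone in the model, none of the 6 was called in any comparison. Their summed levels lay between 26660 and 40260, 24370 and 34700, and 26010 and 32900 normalized counts. Markers of other cells also rose against WT control. Of 5 thalamus markers 1 (Prkcd) rose without the mixture and 2 (with Lef1) with it, and their sums were 2352 to 2870 for WT control, 2329 to 2692 for APP control and 2366 to 3563 with the mixture. Of 5 endothelium markers 1 (Flt1) and 2 (with Tek) rose, with sums of 2351 to 2906, 2725 to 3620 and 2470 to 3583. Of 6 markers of meninges and fibroblasts none and 3 (Col1a1, Col1a2 and Igf2) rose, with sums of 1854 to 4901, 2555 to 5833 and 2575 to 6626. No marker of CA3, dentate gyrus, astrocytes, oligodendrocytes, choroid plexus or blood was called in these comparisons with the group alone in the model. Of the 8 choroid plexus markers 5 could be tested there. The part of these cell types in the level of Arntl was not tested.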

How the data were processed

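RNA was prepared from microdissected CA1 and sequenced as single-end reads of 50 nt. The authors aligned reads to mm10 with STAR (2.5.2b) and counted them with featureCounts (Subread 1.5.1); the annotation release and strand setting are not given in the sources used here. The deposited counts are raw reads per Ensembl gene, of which 48349 of 48709 matched GENCODE M21; 14228 were 0 in all libraries. A further file from the authors holds normalized log2 values for 18825 genes, used for the adjustment number and as an alternative.

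Genes that reached 5 counts in 50% of the libraries or more (19297) were tested with DESeq2 (1.42.0), all groups in 1 fit, Wald tests and Benjamini-Hochberg adjustment over all genes at 0.05. Further fits had the level of Dbp (log2(normalized count + 1), scaled to SD 1) or the adjustment number as a term; the latter was added after the data were seen. edgeR (4.0.16), limma (3.58.1), TMM size factors, no filter, fits of the compared groups alone and leaving out each library were alternatives. Correlations of log2(normalized count + 1) used 100000 two-sided permutations of libraries within groups. Overlap was counted over all kept genes, and spread was compared with the 12765 genes with a mean of at least 100 normalized counts. The fits and permutations were tested on simulated data. R (4.3.3), Python (3.11.15), numpy (2.4.6), pandas (2.3.3), scipy (1.17.1) and matplotlib (3.10.9) were used.

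The 10 members and all lists were chosen with earlier results of these data known. All 10 were described. Of a list, the called genes were named, otherwise up to 4 with the largest change, and for likeness the 5 genes with the highest and lowest r, of which 1 is not reported here. Further genes (Csnk1d, Csnk1e, Cirbp, Rbm3, Plin4, Sult1a1, Fkbp5, Zbtb16, Mobp, Mbp and Avp) were named after their values were seen. Immediate early genes and oligodendrocyte markers are represented by 3 of those called. The predicted targets are those the study lists. Promoters and microRNAs came from RefSeq on GRCm38.p6 and target sites from the GENCODE transcripts on GRCm38. Each library is taken as 1 animal, and p-values measure the spread between these libraries. The most similar pair of libraries of a group (51 pairs) still had a chi-square of 4.94 for each gene, so none was treated as a repeat. All counts carry counting error, which is small at these depths.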

Additional observations from a re-analysis of the deposited data

Results flagged for a closer look

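Cry1 in WT control 3 lay far from the rest of its group, at 482 normalized counts beside 334 to 373 in the other WT control libraries. It was the single case among 30 sets of libraries examined (10 clock genes in 3 groups), in which chance would give 1.5. Without this library Cry1 was called in APP anti-miR-mix against WT control, with a log2 fold change of 0.27 (DESeq2 adjusted p = 0.0382).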

How the results depend on the processing

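Arntl was called against WT control under all 27 alternatives in both comparisons, and no clock gene was called between the transgenic groups under any. Of the values that rest on 1 gene, 334 kept their direction and side of the threshold under settings other than leaving out a library, 28 turned sign, 6 passed the threshold newly and 6 no longer passed it. Of these, 2 that passed newly and 4 that no longer passed are adjusted p-values of fits, and the rest are correlations with Dbp judged on unadjusted permutation p, of which none passed after adjustment with all libraries. The causes of these changes were not tested. In APP anti-miR-mix against WT control edgeR called 1 clock gene, Arntl, and the fit of these groups alone called 3. Leaving out each library gave 1 to 3 clock genes in that comparison, 1 to 2 with the Dbp level and 4 to 7 with the adjustment number. The Arntl level as covariate called 0 clock genes. Over all genes the Dbp level gave 2466 calls, beside 1254 with edgeR, 623 with the adjustment number as a factor, 0 with Arntl as covariate and 912 to 3404 on leaving out a library (912 without APP control 2). The fit of the groups alone called 3 genes between the transgenic groups.

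The label numbers are not stated to mark a shared animal, litter or day. Same-number libraries had a mean correlation of deviations of 0.0927 over 18 pairs (-0.125 to 0.347), 10 of them above 0.1, beside -0.0178 for other pairs. Since not every pair was above 0.1, the label numbers were not taken as pairing, but whether they share a day or batch was not tested. Same-number libraries mostly shared the adjustment number. With the replicate block, 1, 0 and 2 clock genes were called in the group comparisons and 0 with the Dbp level, and 1243, 1, 2224 and 445 genes in all, beside 908, 0, 1727 and 2466.

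The r of Dbp and Arntl was -0.49 without centring (permutation p = 0.0303), -0.48 with the adjustment number regressed out (permutation p = 0.0438) and -0.471 to -0.316 on leaving out a library. These p are unadjusted and were not adjusted over the 9 relations, so they are no call, and the r without centring includes the differences between groups. The r with Dbp turned sign with the adjustment number regressed out for Per1 (-0.144), Per2 (-0.349), Clock (0.105) and Nr1d2 (0.298), without centring for Per2 (-0.0071) and Per3 (0.0329), without the choroid-rich libraries for Per2 (-0.0828), without the 2 libraries farthest in Dbp for Per3 (0.321), Cry1 (0.0907) and Cry2 (0.122) and on log2(CPM + 1) for Cry2 (0.0794). On leaving out a library its range crossed 0 for Per2 (-0.153 to 0.46), Per3 (-0.356 to 0.343), Cry1 (-0.393 to 0.146) and Cry2 (-0.147 to 0.231).

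The log2 change per SD of Dbp turned sign with the adjustment number as a factor for Per1 (-0.0241), Per2 (-0.0778), Clock (0.0144) and Nr1d2 (0.0895), with the replicate block for Per2 (-0.0558) and Nr1d2 (0.069) and without the choroid-rich libraries for Per2 (-0.0113). On leaving out a library its range crossed 0 for Per2 (-0.0236 to 0.0759), Per3 (-0.0447 to 0.0418), Cry1 (-0.0598 to 0.0313) and Cry2 (-0.0152 to 0.0271). The log2 change per adjustment number turned sign without the choroid-rich libraries for Arntl (-0.01). On leaving out a library its range crossed 0 for Per3 (-0.0159 to 0.0217), Cry1 (-0.0029 to 0.0337) and Arntl (-0.0052 to 0.0178).

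Between the transgenic groups the log2 difference turned sign with the adjustment number as a factor for Per2 (-0.0156), Per3 (0.0023) and Cry2 (-0.0073), with limma on the deposited table for Per2 (-0.0016) and Per3 (0.011), with edgeR for Per3 (0.0026), with TMM for Per3 (0.0023) and with the replicate block for Per3 (0.0087). On leaving out a library its range crossed 0 for Per2 (-0.0414 to 0.0393), Per3 (-0.043 to 0.0416), Cry2 (-0.0213 to 0.0373), Arntl (-0.0204 to 0.0427), Clock (-0.11 to 0.0225), Dbp (-0.011 to 0.117) and Nr1d1 (-0.0124 to 0.0828). In APP control against WT control it turned sign with limma on the deposited table for Cry1 (0.0152). On leaving out a library its range crossed 0 for Per2 (-0.0807 to 0.0086), Cry1 (-0.0732 to 0.0775) and Clock (-0.131 to 0.0015). With the mixture against WT control it crossed 0 on leaving out a library for Per2 (-0.0776 to 0.0114) and Nr1d2 (-0.0138 to 0.102).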
